A study of Mus musculus with 30 samples.

Results

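AP-1 (activator protein 1) is a family of transcription factors, and 8 of its genes are described here out of the 28586 genes listed in the expression tables. The 8 were chosen by name: *Fos*, *Fosb*, *Fosl1* and *Fosl2* of the Fos family, *Jun*, *Junb* and *Jund* of the Jun family, and *Atf3*. The study followed enteric glia of the mouse through postoperative ileus, the bowel paralysis that follows abdominal surgery, which was induced by intestinal manipulation (IM), a gentle rolling compression of the small bowel. Adult male mice were left untouched (naïve) or killed 3, 24 or 72 h after IM (IM3h, IM24h, IM72h), and mRNA was read from the muscularis externa (*ME*), the muscle coat that holds the enteric nervous system. Total *ME* RNA was sequenced in 3 naïve, 3 IM3h, 4 IM24h and 4 IM72h libraries, and ribosome-bound mRNA pulled down from Sox10-Cre cells (*RiboTag*) in 3 naïve and 4 libraries at each later time. The animals of all *RiboTag* groups, and of *ME* IM24h and IM72h, come, by their labels, from a cross of B6 Tg(Sox10-icre/ERT2)388Wdr/J with B6N.129 Rpl22tm1.1Psam/J. In this cross, tamoxifen turns on an epitope-tagged ribosomal protein in cells that use the Sox10 promoter, which is active in glia. The *ME* naïve and IM3h animals carry another driver, B6.Cg-Tg73.12Mvs/J(Gfap-cre), with the same tagged ribosomal protein, so that in *ME* a change from naïve or IM3h to IM24h or IM72h cannot be told apart from a difference between the labelled lines. Operated animals also received tramadol and isoflurane. The labels list 4 naïve *RiboTag* samples, but the count tables used here hold 3 naïve *RiboTag* libraries, so 1 sample was not analysed.

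AP-1 factors bind DNA as pairs: Fos proteins need a Jun partner, whereas Jun proteins can also pair with each other or with Atf3. Most of these genes are immediate early genes, transcribed within minutes of growth factor, cytokine, stress or injury signals from pre-existing factors, with short-lived mRNAs. In nervous tissue *Fos* and *Fosb* are read as marks of recent activity, and *Jun* and *Atf3* as marks of axon injury and of the glial injury response.

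Levels are given as CPM (counts scaled to a common library size) after TMM scaling, a correction of the library totals for their composition, and libraries are numbered within each group by the running numbers in their names. The TMM factors were set within each fraction, so CPM of *RiboTag* and of *ME* are not on a common scale. Totals ran from 3010306 to 7899493 counts in *RiboTag* and from 6603170 to 12866062 in *ME*. AY036118, a gene model that overlaps ribosomal RNA, took 2.02% to 14.0% of the counts in naïve and IM3h *RiboTag* libraries, 22.2% to 59.2% at IM24h and 58.0% to 80.1% at IM72h, where only 8644 to 11416 genes were detected against 17162 to 19331 in naïve libraries. In *ME* its share was 16.1% to 33.5% in naïve libraries, 24.1% to 25.1% at IM3h, 1.33% to 6.5% at IM24h and 2.34% to 3.69% at IM72h. That split in *ME* runs along the split of the labelled lines, and its part in the *ME* values was not tested. The summed level of 6 glial markers was 1558 to 1881 CPM in naïve *RiboTag* and 117 to 139 CPM in naïve *ME*. In *RiboTag* it was 1298 to 2818 CPM at IM3h, 776 to 923 at IM24h and 144 to 1461 at IM72h. *Sox10*, the gene whose promoter drives the Cre, stood at 699 ± 297 CPM (SD, n = 3) in naïve *RiboTag* and at 3.94 ± 5.41 (n = 4) at IM72h, so that at IM72h this marker did not bear out the label of a glial fraction. Another glial marker, *S100b*, was still present there at 742 ± 449 CPM (SD, n = 4). The summed level of 6 smooth muscle markers was 4879 to 7531 CPM in naïve *RiboTag* beside 22070 to 23656 in naïve *ME*. That of 7 neuron markers was 602 to 1177 CPM in naïve *RiboTag* beside 486 to 507 in naïve *ME*. At IM3h it was 686 to 1491 CPM in *RiboTag* beside 389 to 436 in *ME*. The part of neurons in the *RiboTag* values was not tested. In bulk samples like these, fewer cells of a type and less RNA per cell cannot be told apart.

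The upstream sequences of 4 members are shown because these genes rose together and their start regions differ in one short motif. In each, the 250 bases before the RefSeq transcript start are given (GRCm38.p6), read 5′ to 3′ on the gene's strand. *Fos* lies at chr12:85473890-85477274, and the printed stretch is chr12:85473640-85473889 on the plus strand. *Jun* lies at chr4:95049036-95052222, and its stretch is chr4:95052223-95052472 on the minus strand. *Junb* lies at chr8:84976909-84978748, and its stretch is chr8:84978749-84978998 on the minus strand. *Atf3* lies at chr1:191170296-191183333, and its stretch is chr1:191183334-191183583 on the minus strand. Capitals mark TGACG or its reverse complement CGTCA, the short form of the cyclic AMP response element that factors of the CREB and ATF group bind.
Fos: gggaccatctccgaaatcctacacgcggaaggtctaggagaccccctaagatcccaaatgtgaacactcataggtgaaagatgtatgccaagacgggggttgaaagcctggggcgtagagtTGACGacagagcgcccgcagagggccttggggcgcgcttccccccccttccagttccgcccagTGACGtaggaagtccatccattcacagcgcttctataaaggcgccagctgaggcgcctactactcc
Jun: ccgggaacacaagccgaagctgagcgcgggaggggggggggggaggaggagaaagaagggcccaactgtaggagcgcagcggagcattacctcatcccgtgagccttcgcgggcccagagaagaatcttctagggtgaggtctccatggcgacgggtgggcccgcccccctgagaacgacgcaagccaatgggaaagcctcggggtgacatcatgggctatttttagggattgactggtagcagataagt
Junb: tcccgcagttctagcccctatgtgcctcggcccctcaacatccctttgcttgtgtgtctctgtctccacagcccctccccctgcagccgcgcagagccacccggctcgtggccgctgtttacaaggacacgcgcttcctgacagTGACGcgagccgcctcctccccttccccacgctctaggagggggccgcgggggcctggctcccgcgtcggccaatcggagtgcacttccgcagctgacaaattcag
Atf3: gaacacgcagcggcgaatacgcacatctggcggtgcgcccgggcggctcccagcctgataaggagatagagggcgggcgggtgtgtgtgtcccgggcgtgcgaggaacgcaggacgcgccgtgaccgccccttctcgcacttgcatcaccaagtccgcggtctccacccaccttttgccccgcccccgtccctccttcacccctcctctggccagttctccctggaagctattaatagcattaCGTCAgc

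The short element was searched on both strands in windows from 250 bases before to 50 bases after the start, which the reference held for 7 of the 8 members, all but *Fosl1*. It occurred in 4 of the 7, beside 20.8% of 32851 such windows of all genes. In *Fos* its first base lay at -129 and -66, in *Fosb* at -60, in *Junb* at -106, and in *Atf3*, on the opposite strand, at -7. No window of *Fosl2*, *Jun* or *Jund* held it. The full element TGACGTCA (1.79% of all windows) and the AP-1 site TGACTCA on either strand (5.20%) were in none of the 7. Only exact matches were counted, so related forms of these sites were not looked for.

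At IM3h the AP-1 genes rose together in the glial fraction. In the quasi-likelihood test of edgeR with Benjamini-Hochberg adjustment over 16053 genes, 7 of the 8 members were higher than in naïve *RiboTag* (adjusted p under 0.05), beside 8.86% of all genes tested, and the libraries of the 7 did not overlap, beside 14.3% of all genes. The median log2 fold change of the 8 was 4.97, beside -0.04 for all genes tested. *Jund* alone missed the threshold. *Fosb* and *Fosl1* passed the filter on low counts here only through their IM3h libraries, so they could only be called higher.

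**Figure D1:**
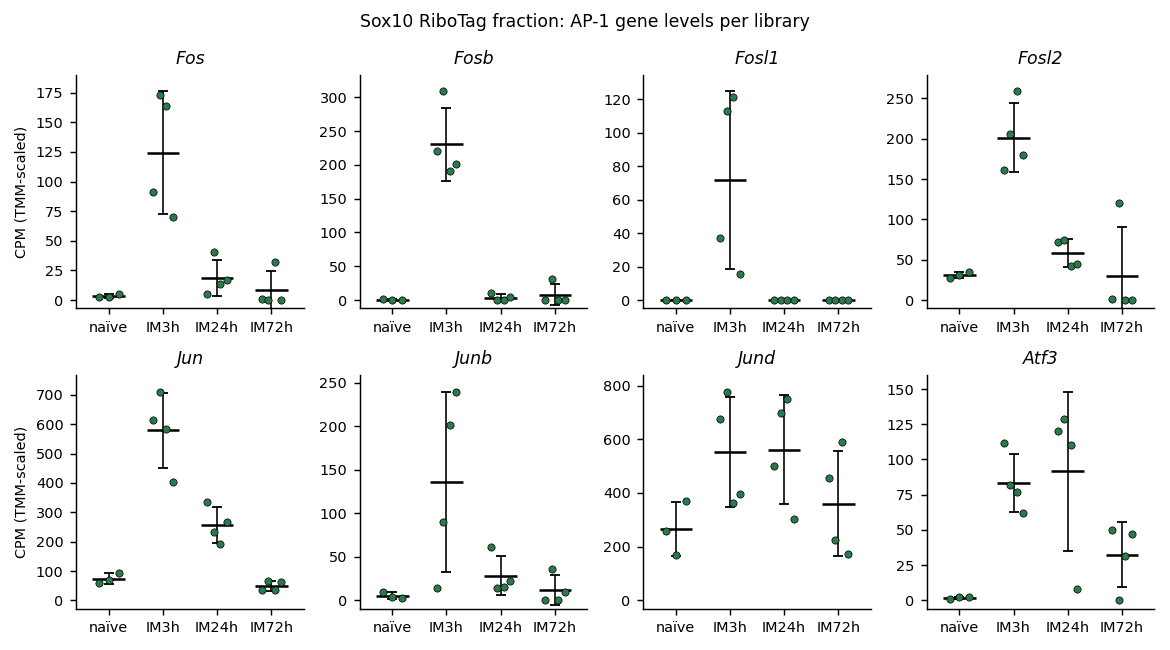
Level of each AP-1 gene (CPM, y axis, one scale per panel) in every *RiboTag* library of the 4 groups (x axis), with the mean and SD. The 4 IM3h libraries lie above the 3 naïve libraries in every panel but *Jund*, and *Atf3* stays near its IM3h level in 3 of the 4 IM24h libraries.

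Among the Fos family, whose proteins carry strong activation domains (*Fos*, *Fosb*) or lack them (*Fosl1*, *Fosl2*), *Fos* stood at 2.73, 2.37 and 5.21 CPM in naïve *RiboTag*, at 90.8, 173, 164 and 69.7 at IM3h, at 4.77, 40.3, 13.9 and 16.7 at IM24h and at 0.960, 0, 32.3 and 0 at IM72h. All 4 IM3h libraries were far above the naïve ones, and 1 of the 4 IM24h libraries was within the naïve range. The log2 fold change of *Fos* at IM3h was 5.24 ± 0.47 (SE; 37.8-fold; adjusted p = 5.22e-05, edgeR). *Fosb*, which is nearly silent at rest in many tissues, stood at 1.19, 0 and 0.254 CPM in naïve libraries and at 221, 309, 190 and 200.8 at IM3h. It was back at 9.93, 0, 0 and 4.91 CPM at IM24h and at 0, 31.2, 0 and 0 at IM72h. The IM3h libraries shared no value with any other group, and the rise of 8.93 ± 0.66 on the log2 scale passed the test (adjusted p = 1.85e-05, edgeR).

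*Fosl1*, which encodes Fra-1, was at 0 counts in all naïve, IM24h and IM72h *RiboTag* libraries. It reached 36.8, 113, 121 and 15.5 CPM at IM3h. Against a floor of 3 counts in each naïve library the mean was at least 200-fold higher (adjusted p = 0.000442, edgeR). *Fosl2*, which encodes Fra-2, was expressed at rest, at 27.9, 31.5 and 34.3 CPM. It stood at 162, 206, 259 and 179 CPM at IM3h, at 72.2, 74.9, 42.5 and 44.8 at IM24h and at 0.960, 120, 0 and 0.616 at IM72h. It rose 6.72-fold at IM3h (log2 2.75 ± 0.27, adjusted p = 7.98e-05, edgeR), and all 4 IM24h libraries still lay above the naïve range.

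In the Jun family, *Jun* encodes the c-Jun protein that Jun N-terminal kinases activate. It stood at 60.5, 67.9 and 94.3 CPM in naïve *RiboTag*, at 616, 711, 585 and 403 at IM3h, at 337, 232, 192 and 267 at IM24h and at 35.5, 65.1, 33.8 and 64.1 at IM72h. The groups stepped down without overlap from IM3h to IM24h and from IM24h to IM72h, and the IM72h libraries overlapped the naïve ones. The rise at IM3h was 3.02 ± 0.30 on the log2 scale (8.12-fold, adjusted p = 9.09e-05, edgeR). *Junb*, which often restrains c-Jun activity, stood at 9.96, 3.50 and 2.79 CPM in naïve libraries, at 14.3, 89.6, 201.1 and 240 at IM3h, at 61.7, 14.6, 15.5 and 22.2 at IM24h and at 0.960, 36.5, 0 and 9.86 at IM72h. IM3h library 1 was only just above the naïve range, and the log2 change of 4.70 ± 0.85 was the least precise of the measurable rises (adjusted p = 0.00377, edgeR).

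*Jund*, the Jun gene that most resting cells express, stood at 257, 168 and 369 CPM in naïve *RiboTag*, at 676, 778, 361 and 398 at IM3h, at 499, 696, 749 and 302 at IM24h and at 455, 223, 588 and 173 at IM72h. Every later group overlapped the naïve libraries. The log2 change at IM3h was 1.12 ± 0.35 (adjusted p = 0.0555, edgeR), and it passed the threshold in DESeq2 (1.11, adjusted p = 0.0115). *Atf3*, a stress-induced factor of the ATF/CREB family that pairs with Jun proteins, stood at 1.07, 2.26 and 2.54 CPM in naïve libraries. The IM3h libraries reached 112, 82.2, 77.3 and 61.9 CPM, the IM24h libraries 120, 129, 110 and 7.93, and the IM72h libraries 49.9, 0, 31.9 and 47.4. The IM3h and IM24h libraries all lay above the naïve range, IM24h library 4 by the smallest margin, and at IM72h 3 of 4 did. The rise at IM3h was 5.46 ± 0.41 on the log2 scale (44.1-fold, adjusted p = 1.85e-05, edgeR).

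The count of 7 rested on the spread of the naïve and IM3h libraries alone. With the 4 *RiboTag* groups in 1 fit, which shares their spread, 2 of 8 members passed, *Fosl1* (adjusted p = 0.0200) and *Jun* (2.96, adjusted p = 0.00596), beside 0.123% of 17930 genes called higher. The other 6 had adjusted p from 0.0752 to 0.846. *Fosl1* entered this fit, too, only through its IM3h libraries.

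The same genes rose in the total *ME* RNA at IM3h. All 8 members were higher than in naïve *ME* (edgeR, adjusted p under 0.05), beside 19.3% of 15333 genes tested, and without overlap, beside 23.4%, with a median log2 fold change of 4.78 beside 0.00 for all genes. Here too *Fosb* and *Fosl1* passed the filter on low counts only through their IM3h libraries. Markers of other cells differed between the same libraries. The summed level of 4 neutrophil markers was 0.646 to 0.847 CPM in naïve *ME* and 20.6 to 28.9 at IM3h, and that of 4 mesothelial markers 86.7 to 126 and 1.77 to 11.7 CPM. In *RiboTag* the mesothelial sum was 84.3 to 239 CPM in naïve libraries and 6.97 to 68.2 at IM3h, and the smooth muscle sum at IM3h 1933 to 5009 CPM. The part of these cells in the IM3h values was not tested.

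**Figure D2:**
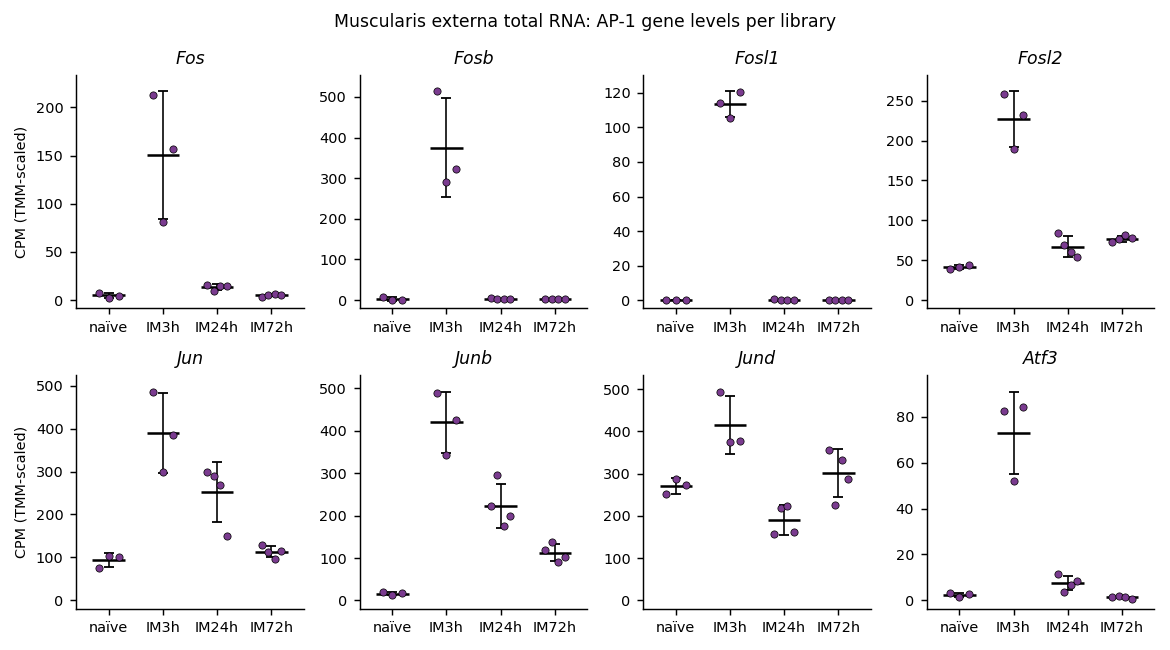
Level of each AP-1 gene (CPM, y axis, one scale per panel) in every total *ME* library of the 4 groups (x axis), with the mean and SD. *Fos*, *Fosb*, *Fosl1* and *Atf3* peak at IM3h, whereas *Junb* stays above the naïve libraries through IM72h.

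*Fos* stood at 7.75, 2.58 and 4.11 CPM in naïve *ME*, at 213, 80.7 and 157 at IM3h, at 16.1, 9.61, 14.1 and 14.2 at IM24h and at 3.45, 4.81, 5.89 and 5.12 at IM72h. The rise at IM3h was 4.93 ± 0.41 on the log2 scale (30.5-fold, adjusted p = 1.50e-05, edgeR), and a rise of 1.45 ± 0.39 remained at IM24h (adjusted p = 0.0179). At IM72h the libraries lay within the naïve range. *Fosb* stood at 7.99, 0.431 and 0.846 CPM in naïve *ME*, at 514, 290 and 322 at IM3h, at 4.10, 2.10, 2.17 and 1.84 at IM24h and at 1.85, 3.32, 2.64 and 1.73 at IM72h. It rose by 6.82 ± 0.61 at IM3h (log2; adjusted p = 2.51e-05, edgeR) and its log2 values were -0.32 ± 0.85 at IM24h and -0.48 ± 0.69 at IM72h, neither past the test. Naïve library 1 was far above the other naïve libraries for this gene, and without it the IM72h value was 1.77 (adjusted p = 0.0193).

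*Fosl1* was at 0 in naïve *ME*, stood at 114, 105 and 121 CPM at IM3h, at 0.455, 0, 0 and 0 at IM24h, and at 0 in all IM72h libraries. Its rise at IM3h was at least 248-fold against a floor of 3 counts per naïve library (adjusted p = 2.57e-07, edgeR), and it was detected after IM3h in 1 library only. *Fosl2* stood at 39.2, 41.5 and 43.6 CPM in naïve *ME*, at 259, 189 and 232 at IM3h, at 83.9, 69.7, 60.4 and 53.9 at IM24h and at 72.3, 76.7, 81.3 and 77.8 at IM72h. Every later library lay above every naïve one, and the log2 changes were 2.496 ± 0.13 at IM3h (adjusted p = 8.58e-07), 0.69 ± 0.18 at IM24h (0.0157) and 0.86 ± 0.11 at IM72h (5.54e-05, edgeR).

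*Jun* stood at 75.7, 104 and 102 CPM in naïve *ME*, at 486, 299 and 384 at IM3h, at 299, 290, 270 and 151 at IM24h and at 128, 112, 97.3 and 115 at IM72h. The IM3h rise was 2.10 ± 0.18 on the log2 scale (adjusted p = 2.25e-05, edgeR) and the IM24h rise 1.42 ± 0.24 (0.00209), with no overlap with naïve libraries at either time. At IM72h the value was 0.24 ± 0.14, which did not pass (adjusted p = 0.176). *Junb* stood at 19.2, 11.8 and 17.8 CPM in naïve *ME*, at 489, 344 and 426 at IM3h, at 222, 296, 175 and 198 at IM24h and at 118, 137, 90.0 and 103 at IM72h. No later library came near the naïve range, and the log2 rises were 4.71 ± 0.20 at IM3h (adjusted p = 3.40e-07), 3.76 ± 0.26 at IM24h (3.11e-05) and 2.73 ± 0.20 at IM72h (1.71e-06, edgeR).

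*Jund* had the smallest rise at IM3h. It stood at 251, 288 and 273 CPM in naïve *ME*, at 494, 374 and 377 at IM3h, at 157, 219, 224 and 162 at IM24h and at 357, 227, 333 and 288 at IM72h. The groups lay above the naïve libraries at IM3h (log2 0.67 ± 0.13, adjusted p = 0.00335, edgeR) and below them at IM24h (-0.51 ± 0.17, adjusted p = 0.0499), and overlapped them at IM72h (0.12 ± 0.15, adjusted p = 0.511). With scaling by library totals the IM24h value was 0.14 (adjusted p = 0.589). In the 7 fits that left out 1 library it was -0.59 to -0.42, with an adjusted p above 0.05 in 5 of them. *Atf3* stood at 3.03, 1.51 and 2.90 CPM in naïve *ME*, at 82.3, 52.1 and 84.3 at IM3h, at 11.6, 3.80, 6.59 and 8.38 at IM24h and at 1.43, 1.82, 1.59 and 0.828 at IM72h. The IM3h rise was 4.85 ± 0.26 on the log2 scale (adjusted p = 9.53e-07, edgeR) and the IM24h rise 1.58 ± 0.48 (0.0316). Its IM72h value of -0.87 ± 0.38 did not pass (adjusted p = 0.0735).

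After the first hours the AP-1 genes kept different courses. In *RiboTag* at IM24h, 6 of 8 members passed the filter on low counts and 1 of them, *Atf3*, was higher than in naïve libraries, by 5.55 ± 0.90 on the log2 scale (adjusted p = 0.0206, edgeR), beside 0.366% of 15304 genes called higher. The call was lost when any 1 naïve library, or IM24h library 1 or 3, was left out (adjusted p up to 0.180), and in the fit of all 4 groups (0.0759). It was also lost with library totals as the scale (4.36, adjusted p = 0.170) and with 3 reference genes (3.56, 0.187). It held at 5.96 (adjusted p = 0.000957) without the low IM24h library 4. *Jun* was 1.82 ± 0.37 higher (adjusted p = 0.0517), and it passed without the 2 IM24h libraries in which AY036118 held over 50% of the counts (2.06, adjusted p = 0.0351), an alternative chosen after the data were seen. It also passed in DESeq2 (adjusted p = 0.000332), with no filter on low counts (0.0339) and without IM24h library 2 (0.0447) or library 4 (0.0192). With library totals its value was 0.99 (adjusted p = 0.518) and with the reference genes 0.45 (0.684). *Fos* (2.46 ± 1.04), *Fosl2* (0.93 ± 0.44), *Junb* (2.44 ± 0.88) and *Jund* (1.10 ± 0.42) did not pass (adjusted p from 0.220 to 0.393). The libraries of *Fosl2*, *Jun*, *Junb* and *Atf3* did not overlap the naïve ones, beside 6.59% of all genes tested that lay wholly above.

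In *RiboTag* at IM72h none of the 6 members tested passed, with adjusted p from 0.254 to 0.991 and no member under 0.05 unadjusted, beside 1.05% of 13572 genes called higher and 15.1% called lower. *Atf3* had the largest value, 4.08 ± 1.93 on the log2 scale (adjusted p = 0.254, edgeR), and passed in DESeq2 (4.33, adjusted p = 0.0265) and in the fit of all 4 groups (4.03, 0.0429). Single libraries carried 3 of the members: nearly all of *Fosb* and *Fosl2* came from library 2, and nearly all of *Fos* from library 3. Without library 2 *Atf3* passed (4.35, adjusted p = 0.0194), and *Fosl2*, at no more than 1 count in each of the other IM72h libraries, was called lower (adjusted p = 0.0215). The high share of AY036118 and the low glial markers named above belong to these same libraries, and their part in the values was not tested.

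In *ME* at IM24h, 5 members were higher (*Fos*, *Fosl2*, *Jun*, *Junb* and *Atf3*) and 1 lower (*Jund*) of 7 tested, beside 15.6% of 16328 genes called higher and 13.4% called lower. The 5 higher members did not overlap naïve libraries, beside 20.1% of genes. At IM72h, 2 of 7 tested were higher (*Fosl2* and *Junb*), beside 29.3% of 16592 genes called higher, a share near that of the members, and both without overlap, beside 31.1%. Without naïve library 2 or naïve library 3, 2 members passed at IM24h, *Jun* and *Junb*, and without naïve library 1 those and *Fos* did. Cell markers moved with these *ME* groups too. The neutrophil sum was 43.9 to 207 CPM at IM24h, and that of 6 macrophage markers was 114 to 118 CPM in naïve libraries, 172 to 291 at IM24h and 352 to 419 at IM72h. The smooth muscle sum of *ME* was 3157 to 10774 CPM at IM24h. In *RiboTag* the neutrophil sum was 1.24 to 3.18 CPM in naïve, 3.17 to 10.7 at IM3h and 7.17 to 49.2 at IM24h, and the macrophage sum 65.8 to 94.3, 49.0 to 82.2 and 63.8 to 117. The part of these cells in the AP-1 levels was not tested.

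**Figure D3:**
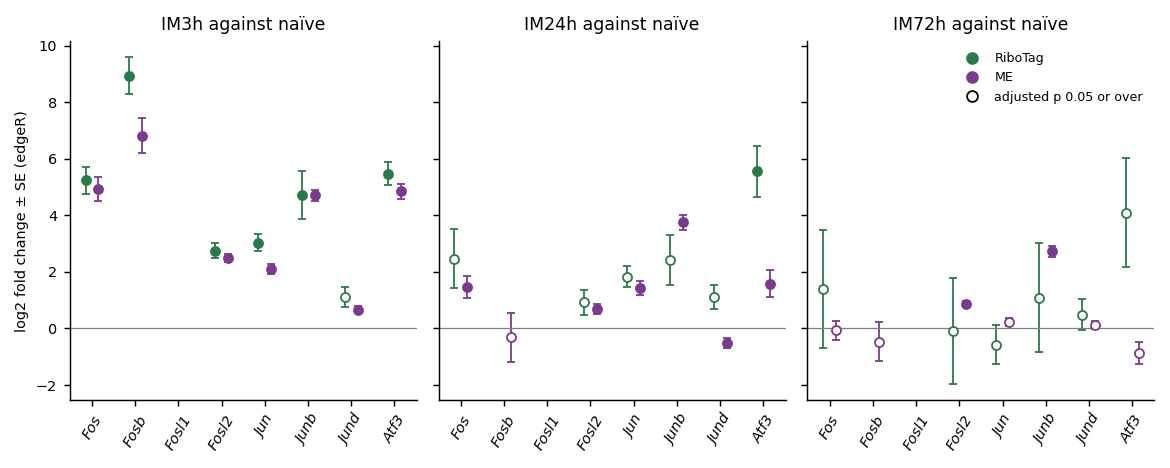
Log2 fold change against naïve (y axis, ± SE, edgeR) of each AP-1 gene (x axis) at IM3h, IM24h and IM72h in *RiboTag* (green) and *ME* (purple), where filled points passed the test. *Fosl1* is left out because its naïve libraries were at 0, and in *ME* only *Fosl2* and *Junb* are filled at IM72h.

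From IM3h to IM24h, a step that in *ME* also spans both labelled lines, all 8 members fell in *ME*, beside 18.7% of 17919 genes called lower, and all but *Jun* did so without overlap, beside 19.9% of genes that lay wholly lower. The log2 changes were -7.18 ± 0.54 for *Fosb* (adjusted p = 1.57e-07), -3.47 ± 0.32 for *Fos* (1.00e-06), -3.26 ± 0.31 for *Atf3* (1.67e-06) and -1.76 ± 0.15 for *Fosl2* (6.10e-07, edgeR). Those of *Jund* (-1.12 ± 0.18), *Junb* (-0.91 ± 0.20) and *Jun* (-0.63 ± 0.22, adjusted p = 0.0322) were smaller. *Fosl1* went from 113 to 0.114 CPM (means), and it entered this test only through its IM3h libraries, so it could only be called lower. With library totals as the scale, *Jun* stood at 0.21 (adjusted p = 0.428) and *Junb* and *Jund* did not pass.

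In *RiboTag*, *Fosl1* was the only member to pass between IM3h and IM24h, where it went to 0 counts (at least 81.6-fold lower, adjusted p = 0.0114, edgeR), beside 0.0669% of 17930 genes called lower. It entered the test only through its IM3h libraries, so it could only be called lower. This call was lost in 5 of the 8 fits that left out 1 library of either group (adjusted p up to 0.0964), and without the 2 IM24h libraries richest in AY036118 (0.572). The libraries of 5 members, *Fos*, *Fosb*, *Fosl1*, *Fosl2* and *Jun*, lay wholly below those of IM3h, beside 10.3% of all genes. *Junb*, *Jund* and *Atf3* overlapped, with means at IM3h and IM24h of 553 and 562 CPM for *Jund* and of 83.3 and 91.8 CPM for *Atf3*.

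From IM24h to IM72h, 4 members fell in *ME*, beside 21.9% of genes called lower: *Atf3* (log2 -2.41 ± 0.33, adjusted p = 3.31e-05), *Fos* (-1.48 ± 0.31), *Jun* (-1.16 ± 0.20) and *Junb* (-0.99 ± 0.19) (all with an adjusted p of 0.00108 or less, edgeR). *Jund* rose by 0.66 ± 0.16 (adjusted p = 0.00428), beside 21.0% of genes called higher. In *RiboTag* only *Jun* passed, with a log2 change of -2.37 ± 0.44 (adjusted p = 0.00860), beside 3.10% of genes called lower and a median of -0.48 over all genes. That fall passed in every alternative tried, from -2.01 to -3.27.

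The response of the glial fraction was set against that of the whole muscle coat by an interaction term, the *RiboTag* change from naïve minus the *ME* change. The naïve and IM3h groups of *ME* and *RiboTag* differ in the labelled driver line, so fraction and line cannot be told apart there, and at IM24h and IM72h the *ME* response itself spans both lines. No member passed at IM3h in edgeR or DESeq2, beside 1.66% of 17593 genes called in either direction. Only *Jun* had an unadjusted p under 0.05, with a response 1.01 ± 0.34 larger in *RiboTag* on the log2 scale (unadjusted p = 0.00920, adjusted p = 0.157). No term was reported for *Fosl1*, which was at 0 in both naïve groups.

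At IM24h the *Atf3* response was 4.001 ± 0.99 larger in *RiboTag* (adjusted p = 0.0876) and that of *Jund* 1.62 ± 0.45 larger (adjusted p = 0.118), and neither passed, beside 0.537% of 17508 genes called in either direction. Both passed in DESeq2, at 4.02 (adjusted p = 0.00482) and 1.68 (0.0260), and without *RiboTag* IM24h library 4, at 4.15 (0.00301) and 1.59 (0.0279). With library totals alone the *Jund* term turned to -0.11 (adjusted p = 0.877). At IM72h the *Atf3* term was 4.53 ± 1.55 (adjusted p = 0.0502), beside 23.3% of 16527 genes called in either direction, and it passed in DESeq2 (5.20, adjusted p = 0.00181) and without *RiboTag* IM72h library 2 (4.96, adjusted p = 0.000135) or library 3 (4.52, 0.0442), and without the AY036118 counts (4.89, 0.0416). Set side by side, *Atf3* stood at 91.8 ± 56.4 CPM (SD, n = 4) in *RiboTag* and 7.59 ± 3.26 (n = 4) in *ME* at IM24h, from 1.96 ± 0.78 and 2.48 ± 0.84 (n = 3 each) in the naïve groups. These CPM were scaled within each fraction, so the levels of *RiboTag* and *ME* are not on a common scale.

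In naïve mice none of the 6 members tested passed between the fractions in edgeR or DESeq2, beside 26.1% of 14769 genes called in either direction, and 1 had an unadjusted p under 0.05, *Junb*, at 5.42 ± 3.95 CPM in *RiboTag* and 16.3 ± 3.92 in *ME* (SD, n = 3 each; adjusted p = 0.104, edgeR). At IM3h 1 of 8 members differed, *Jun*, beside 11.8% of 15837 genes called higher, a share near that of the members. It was 0.96 ± 0.25 higher in *RiboTag* on the log2 scale (adjusted p = 0.0211, edgeR), with 579 ± 129 CPM (SD, n = 4) beside 390 ± 93.8 (n = 3) in *ME*. It did not pass with scaling by 3 reference genes, nor without *RiboTag* IM3h library 2 or *ME* IM3h library 2 or 3. The tests between fractions scaled both together, whereas the CPM beside them were scaled within each fraction.

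The make-up of the AP-1 pool changed with time. The counts of the 8 genes together were 275 to 509 CPM in naïve *RiboTag* and 1568 to 2461 at IM3h, 666 to 1187 at IM24h and 295 to 686 at IM72h. In *ME* the sums were 404 to 450, 1734 to 2652, 590 to 890 and 562 to 682 CPM. The libraries read 1 tag near the 3′ end of a transcript, so the counts were not divided by transcript length, and the shares describe tags. *Jund* held 61.0% to 72.6% of them in naïve *RiboTag* and 18.4% to 35.1% at IM3h, and 61.4% to 63.9% in naïve *ME* and 17.9% to 21.6% at IM3h. The 4 Fos genes together went from 7.82% to 12.3% in naïve *RiboTag* to 26.5% to 37.5% at IM3h, and in naïve *ME* from 9.90% to 13.6% to 38.4% to 41.5%. *Atf3* held 9.79% to 10.9% in 3 *RiboTag* IM24h libraries and 1.20% in library 4, and 0.427% to 1.45% in *ME* IM24h. *Junb* held 23.3% to 33.6% in *ME* IM24h and 1.23% to 5.58% in *RiboTag* IM24h.

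**Figure D4:**
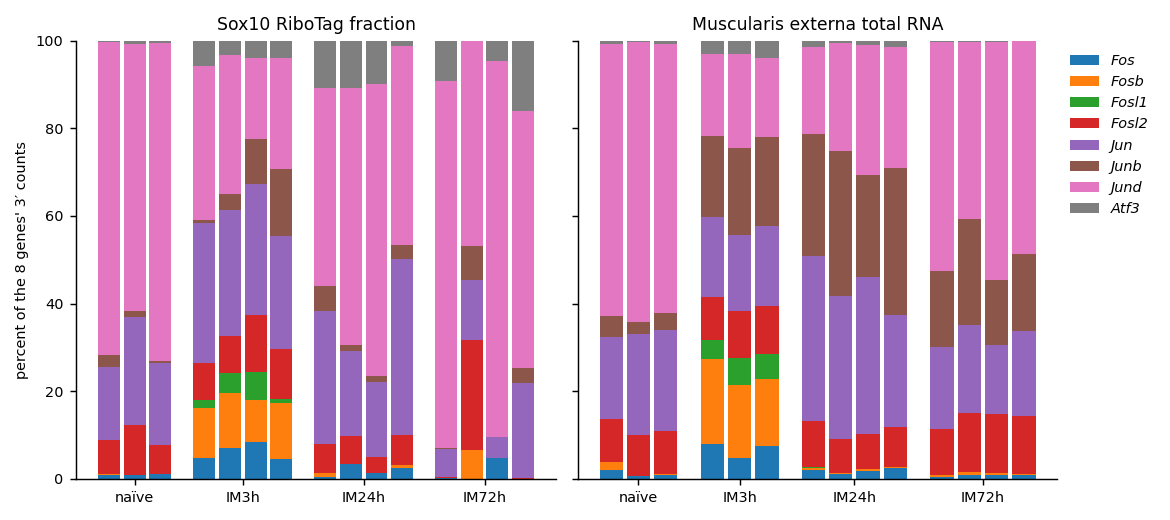
Share of the summed 3′ counts of the 8 AP-1 genes held by each gene (percent, y axis) in every library, 1 bar per library, grouped by time (x axis), in *RiboTag* (left) and *ME* (right). *Jund* is the widest band in naïve libraries and gives way to the Fos genes, *Jun* and *Junb* at IM3h, and the *Atf3* band is wider in 3 of the 4 *RiboTag* IM24h libraries than in any *ME* library.

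Where the tables split genes by transcript, the counts were added up over all libraries and times of a fraction. The most counted *Fosb* transcript held 57.4% of the gene's counts in *RiboTag* and 84.9% in *ME*. Another held 21.9% in *RiboTag* and 0.608% in *ME*. The most counted *Atf3* transcript held 88.2% in *RiboTag* and 53.4% in *ME*. The *ME* split varied with time: this transcript had 842 counts beside 297 for another at IM3h, and 85.2 beside 165 at IM24h. *Fosl1*, *Jun* and *Jund* were each counted as 1 transcript. Reads of 3′ libraries seldom tell transcripts with a shared end apart, so these splits are estimates.

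Of 23 other bZIP factors, the class that holds AP-1 and its partners, 9 rose and 1 fell (*Atf5*, -0.76 ± 0.21) at IM3h among the 22 tested in *RiboTag*, with a median log2 change of 0.89 beside -0.04 for all genes, of which 8.86% were called higher and 4.44% lower. In *ME* 15 of 23 rose and none fell, with a median of 1.84, beside 19.3% of all genes called higher and 13.4% lower. *Bach1*, a repressor of the heme oxygenase gene that pairs with small Maf proteins, went from 15.6 ± 6.49 (SD, n = 3) to 198 ± 21.8 CPM (n = 4) in *RiboTag* (log2 3.73 ± 0.32, adjusted p = 4.35e-05, edgeR). The small Maf genes *Maff* (3.98 ± 0.44) and *Mafk* (2.42 ± 0.45) rose too, as did *Atf4* (2.12 ± 0.26), the effector of the integrated stress response. In *ME* the 4 smallest adjusted p were those of *Atf4* (2.74 ± 0.13), *Cebpd* (5.33 ± 0.25), *Maff* (5.02 ± 0.24) and *Mafk* (2.90 ± 0.14).

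Later, 12 of 23 were higher in *ME* at IM24h and 11 at IM72h, with 0 and 2 lower, the latter *Atf2* (-0.94 ± 0.11) and *Ddit3* (-0.34 ± 0.13). Of all genes 15.6% were called higher and 13.4% lower at IM24h, and 29.3% and 28.3% at IM72h. In *RiboTag* none of 21 passed at IM24h in edgeR, beside 0.366% of all genes called higher and 0.131% called lower. At IM72h 1 of 20 was higher and 1 lower, beside 1.05% and 15.1% of all genes. The lower was *Maff*, at 0 counts in all 4 libraries (at least 1.56-fold).

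Of 28 kinases and factors upstream of AP-1, 4 rose and 2 fell in *RiboTag* at IM3h (8.86% and 4.44% of all genes). In *ME* 7 rose and 2 fell (19.3% and 13.4% of all genes). The median log2 changes were 0.15 and 0.13. Of the 4 genes with the smallest adjusted p in each fraction, 3 were shared. *Map2k3*, a kinase of the p38 pathway, rose by 3.21 ± 0.31 in *RiboTag* and by 2.40 ± 0.14 in *ME*. *Map3k8*, a kinase that links Toll-like receptor signals to ERK, rose by 4.36 ± 1.10 and 2.60 ± 0.24. *Mef2c*, a muscle and neuron factor, fell, at -1.06 ± 0.29 and -1.44 ± 0.17. The other of the 4 was *Elk4* in *RiboTag* (0.95 ± 0.26), a partner of serum response factor at the *Fos* promoter, and *Mef2d* in *ME* (1.496 ± 0.19). The other genes that fell were *Map2k6*, a kinase of the p38 pathway, in *RiboTag* (at least 13.1-fold lower) and *Mapk3*, which encodes ERK1, in *ME* (-0.38 ± 0.12). At IM24h 8 rose and 4 fell in *ME*, beside 15.6% and 13.4% of all genes. In *RiboTag* none of 28 passed at IM24h in edgeR, beside 0.366% of all genes called higher and 0.131% called lower. At IM72h 10 rose and 8 fell in *ME*, beside 29.3% and 28.3% of all genes. In *RiboTag* 4 of the 27 tested fell at IM72h, beside 15.1% of all genes called lower, a share near that of the list. They were *Mapk11*, *Mapk7*, *Map2k1* and *Elk1*, all at no more than 3 counts in each IM72h library (at least 2.08-fold, 3.71-fold, 6.35-fold and 9.004-fold lower).

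Genes known as AP-1 targets rose in numbers at IM3h. Of 20 such genes, 13 of the 18 tested rose in *RiboTag* and 18 of the 19 tested in *ME*, and none fell, beside 8.86% and 19.3% of all genes called higher. The median log2 changes were 4.29 and 4.803, or 3.45 and 3.97 with the genes that had no more than 3 counts in each naïve library set at their lower bound. The genes set at their bound passed the filter on low counts only through their IM3h libraries and could only be called higher. *Hbegf*, a ligand of the EGF receptor, went from 20.5 ± 5.83 (SD, n = 3) to 1915 ± 367 CPM (n = 4) in *RiboTag* (log2 6.60 ± 0.36, adjusted p = 5.87e-06, edgeR) and rose by 4.803 ± 0.30 in *ME*. *Hmox1*, heme oxygenase, rose by 4.54 ± 0.36 in *RiboTag* and 5.55 ± 0.24 in *ME*. *Cd44*, the hyaluronan receptor, rose by 3.39 ± 0.35 and 2.83 ± 0.15.

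In *ME* 15 of 19 tested were higher at IM24h, beside 15.6% of all genes, and 13 of 16 at IM72h, beside 29.3%, 1 being lower. The genes that passed were not the same at each time: *Areg*, *Mmp13*, *Plau* and *Vegfa* passed at IM3h but not at IM24h, and *Mmp9* at IM24h but not at IM3h. *Timp1*, an inhibitor of matrix metalloproteinases, stood 5.95 ± 0.39 and 4.74 ± 0.38 above naïve on the log2 scale at IM24h and IM72h, and *Ccl2*, a monocyte chemoattractant, 7.55 ± 0.68 and 4.93 ± 0.50. *Vegfa*, the endothelial growth factor, was the lower gene at IM72h (-0.60 ± 0.19). In *RiboTag* none of 16 passed at IM24h and none of 10 at IM72h in edgeR, beside 0.366% and 1.05% of all genes called higher. The medians of these target genes were 2.58 beside -0.11 for all genes at IM24h and 0.23 beside -0.40 at IM72h. The genes of all 3 lists were chosen with results of these data known, so the counts describe them and support nothing further.

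**Figure D5:**
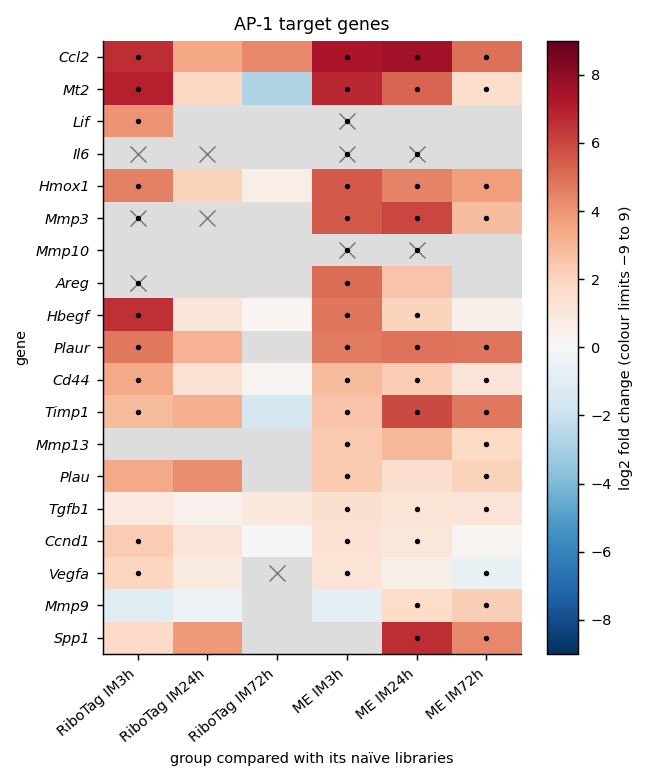
Log2 fold change against naïve (colour) of 19 of the known AP-1 target genes (y axis, ordered by the *ME* IM3h value) in the 6 comparisons (x axis), where a dot marks an adjusted p under 0.05, grey a gene not tested, and a grey cross a gene at or under 3 counts in every library of 1 group, whose fold is not drawn. Dots fill most of the *RiboTag* IM3h column and the *ME* columns, and the *RiboTag* IM24h and IM72h columns hold none.

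The genes whose 6 fold changes from naïve lay nearest to those of each member were found by Euclidean distance over the 6 log2 values among 12309 other genes tested in every comparison. Comparisons within a fraction share their naïve libraries, so the distances describe profiles only. Nearest to *Fos* were *Csrnp1* (1.53) and *Nfkbia* (2.12), and nearest to *Fosl2* were *Tfrc* (0.86) and *Ccnl1* (0.88). *Jun* was nearest to *Rrs1* (0.74) and *Rel* (0.92), *Junb* to *Hmga1* (1.59) and *Hmox1* (1.61), and *Jund* to *Traf4* (0.56) and *Chd4* (0.60). Nearest to *Atf3* were *Dusp5*, a nuclear phosphatase of ERK (1.81), and *Csrnp1* (3.58). The nearest AP-1 member to *Fos* was *Junb*, at 3.69, farther than *Csrnp1* and *Nfkbia*.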

How the data were processed

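The authors sequenced QuantSeq 3′ mRNA libraries and made the tables in Partek Flow with cutadapt, STAR and mm10 (versions not given in the sources used here). The deposited values are estimated counts per transcript or gene, not normalized. Transcripts of 1 symbol were added up and the sums rounded to whole counts. The deposited tables of the authors' own comparisons (p-values, fold changes, group means) were not used. Library names in the tables gave the group but no single labelled sample, and 29 libraries of 30 labelled samples were analysed. The study's methods count animals as n. The p-values measure the spread between these libraries.

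Counts were tested with edgeR 4.0.16 in R 4.3.3 (TMM factors, filterByExpr, quasi-likelihood test, Benjamini-Hochberg adjusted p under 0.05 over all genes), in the groups compared. Interaction terms used the 4 groups involved. Steps between operated groups used all groups of the fraction. SE is the log2 fold change divided by the root of F. The scripts were tested on simulated data. Alternatives were DESeq2 1.42.0, the study's threshold (unadjusted p under 0.05 and over 2-fold), library totals or *Actb*, *Hsp90ab1* and *Rplp1* as the scale, no filter, no AY036118, all groups of a fraction in 1 fit, and each library left out. Where a group had no more than 3 counts in every library, folds are bounds against 3 counts per library. Totals ran from 3010306 to 12866062 counts, and depth limits low genes most in *RiboTag* IM72h.

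The 8 members and the lists of partners, upstream genes and targets were chosen with earlier results of these data known. All 8 members are named; of each list, up to 4 genes with the smallest adjusted p in a comparison; and for likeness, the 2 nearest genes. Some genes that these rules name are not reported here. List genes that fell (5 or fewer in a comparison) and later values of genes named at IM3h were named after their values were seen. Promoter sequences are from RefSeq (GRCm38.p6).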

Additional observations from a re-analysis of the deposited data

Results flagged for a closer look

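In 36 groups of 4 libraries, 6 held a library farther from the others than Dixon's 95% limit allows, and chance flags about 5% of groups. In *RiboTag* IM72h the highest libraries of *Fos* (32.3 CPM, library 3), *Fosb* (31.2 CPM, library 2) and *Fosl2* (120 CPM, library 2) stood apart. In *RiboTag* IM24h the highest library of *Junb* (61.7 CPM, library 1) and the lowest of *Atf3* (7.93 CPM, library 4) did. In *ME* IM24h the highest library of *Fosb* (4.10 CPM, library 1) did. *RiboTag* IM24h library 4, the low one for *Atf3*, had the smallest share of AY036118 of its group (22.2%), and the part of this share was not tested.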

How the results depend on the processing

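No paired analysis was possible because the library names in the tables carry no replicate numbers that match the labels. The number of members called moved by over 1.5 times as follows. At the study's threshold it was 5 in *RiboTag* at IM24h against naïve, 5 from IM3h to IM24h, 1 in *ME* at IM72h, 3 in *ME* from IM24h to IM72h, 1, 2 and 1 for the interactions at IM3h, IM24h and IM72h, and 1 and 0 between fractions in naïve mice and at IM3h. In DESeq2 it was 2 and 1 in *RiboTag* at IM24h and IM72h, 2 from IM3h to IM24h, 2 and 1 for the later interactions and 2 between fractions at IM3h. With library totals it was 0 in *RiboTag* at IM24h, 4 in *ME* at IM72h, 5 in *ME* from IM3h to IM24h, 2 for the interaction at IM72h, and 3 and 4 between fractions. With the 3 reference genes it was 0 and 1 in *RiboTag* at IM24h and IM72h, 3 in *ME* at IM24h, 1 for the interaction at IM72h and 0 between fractions at IM3h. Without the filter it was 2 in *RiboTag* at IM24h and 2 from IM3h to IM24h. With all groups in 1 fit it was 2, 0 and 1 in *RiboTag* at IM3h, IM24h and IM72h. Without AY036118 it was 1 for the interaction at IM72h. Without the libraries over 50% AY036118, chosen after seeing the data, it was 2 in *RiboTag* at IM24h and 0 from IM3h to IM24h. Leaving out 1 library gave 7 to 8, 0 to 2 and 0 to 2 calls in *RiboTag* at IM3h, IM24h and IM72h, 8 to 8, 2 to 6 and 2 to 3 in *ME*, 0 to 1 and 1 to 2 for the later *RiboTag* steps, 7 to 8 and 5 to 5 for those of *ME*, 0 to 0, 0 to 2 and 0 to 4 for the interactions, and 0 to 1 and 0 to 2 between fractions.

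Signs changed, among others, under library totals for *Fosl2* in *RiboTag* at IM24h (-0.0147), *Fosb* (0.24) and *Jund* (0.14) in *ME* at IM24h, *Fos* (0.49) and *Fosb* (0.0526) in *ME* at IM72h, *Jun* in *ME* from IM3h to IM24h (0.21) and the *Jund* interaction at IM24h (-0.11). They changed under the 3 reference genes for *Fosl2* (-0.64) and *Jund* (-0.56) in *RiboTag* at IM24h and *Jun* (-0.37) and *Jund* (-0.50, adjusted p = 0.0107) in *ME* at IM72h, and without the filter for *Fos* in *ME* at IM72h (0.0293). With 1 library left out, the *ME* values of *Fosb* spanned -0.82 to 1.93 (IM24h) and -0.95 to 1.77 (IM72h), those of *Fos* -0.32 to 0.46 (IM72h), and the *RiboTag* values of *Fosl2* -6.03 to 0.33 (IM72h), the lower end being a fitted value at no more than 1 count per IM72h library and no measure of the fold. Of 94 sign changes over all member values, 2 were in values called as reported and 5 in values called only under the alternative. The 5 were *Jund* and *Fosb* in *ME* at IM72h as above, the IM72h interactions of *Jund* with library totals (-2.05, adjusted p = 0.0190) and of *Fos* without *RiboTag* IM72h library 3 (-3.97, 0.0369, again at no more than 1 count in each IM72h library left), and *Fosl2* between fractions in naïve mice with library totals (0.68, 0.0318). The causes were not tested. The median log2 change of all genes against naïve was -2.13 to 0.66 with library totals and -2.07 to -0.35 with the reference genes. With the TMM factors it was -0.40 to 0.02.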
